A study of Mus musculus with 18 samples.

Results

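The response of M-Wnt cells to 72 h without folic acid was read from 6 arrays: 3 of cells kept in medium with 2.2 µM folic acid (control) and 3 of cells kept in medium with 0 µM (withdrawal). M-Wnt is a mouse mammary tumour cell line of the triple-negative type, mesenchymal and claudin-low, and its companions in the series are the epithelial E-Wnt and the metastatic metM-Wnt line, with 6 arrays each. All 3 lines were grown in RPMI medium. Control medium carried regular fetal bovine serum and folic acid-free medium carried dialyzed serum, so serum and folic acid changed together and cannot be told apart. Each array compared the cells' RNA (red, Cy5) with RNA of NIH3T3 mouse fibroblasts (green, Cy3), the same reference throughout, and a level here is the log2 ratio of red to green. Where a gene or probe is said to be or stand at a value, that value is its log2 change, withdrawal minus control. Arrays of a group were described by the submitters as biological replicates. Members are the features, single probes or named genes, whose red signal was well above background on all 3 arrays of either M-Wnt group: 38171 of the 41079 features tested over the 18 arrays of the series. Of 157 genes that could be named on the array, 74 were tested and 66 are members; the others are probes known by their IDs, most of which could not be given a gene here. The label of the cells could not be checked against markers, because a single one of 54 cell type markers, Wfdc18, was named and tested.

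Folate carries one-carbon units in separate mitochondrial and cytosolic pools, between which the units pass as serine, glycine and formate. Cells use them to make purines and thymidylate for DNA, and to turn homocysteine back into methionine, the source of methyl groups. Serine and glycine supply most of these units, glycine through the mitochondrial glycine cleavage system. Cells that lack folate run short of nucleotides, slow in S phase and misincorporate uracil into DNA.

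Folic acid withdrawal changed 7563 features at an adjusted p under 0.05 (limma, Benjamini-Hochberg over all features), 18.4% of those tested: 4114 were higher and 3449 lower. In metM-Wnt the same comparison called 166 features (0.404%) and in E-Wnt 16 (0.0389%), in a model that gives each feature the same standard error in all 3 lines. The difference between lines was itself tested: the M-Wnt response differed from that of metM-Wnt for 2092 features (5.09%), with 1205 more positive in M-Wnt (2.93%) and 887 more negative (2.16%). It differed from that of E-Wnt for 2820 (6.86%), 1615 more positive (3.93%) and 1205 more negative (2.93%). Array levels of M-Wnt correlated at 0.986 to 0.993 within control, 0.98 to 0.995 within withdrawal and 0.943 to 0.968 between the media, across features. Where a probe was well above background in both M-Wnt groups, 6845 of 34825 were called (19.7%), 3809 higher and 3036 lower. Features bright in only 1 group were sorted by their red signal, so their calls lean towards that group. There were 223 higher and 1 lower among 1131 bright in withdrawal only. Among 2215 bright in control only, 5 were higher and 391 lower. Slide moved with the medium: control replicates 1 and 2 lay on another slide than control replicate 3 and the 3 withdrawal arrays. Within the shared slide, with 1 control array assumed to vary like the other groups, 2023 features were called, 1016 higher and 1007 lower. Of these, 2013 were among the 7563, all with the same sign; the 2 fits share 4 arrays. Leaving out control replicate 2 or 3 or withdrawal replicate 2 or 3 gave 4192, 3994, 4504 and 4551 calls in M-Wnt.

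The named genes are shown with a second, separately designed probe where the array holds one, because overlapping probes measure the same RNA again. Each line gives the deposited probe letters, 5′ to 3′, with the stretch that both probes share in capitals (40 letters for Hspb1, 48 for Gcsh and 55 for Pdcd10).
Hspb1, named probe: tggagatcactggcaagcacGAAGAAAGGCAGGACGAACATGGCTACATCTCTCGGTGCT
Hspb1, second probe: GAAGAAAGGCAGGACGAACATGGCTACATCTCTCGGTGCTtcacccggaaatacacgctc
Gcsh, named probe: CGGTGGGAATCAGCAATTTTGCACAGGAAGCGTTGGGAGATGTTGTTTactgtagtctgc
Gcsh, second probe: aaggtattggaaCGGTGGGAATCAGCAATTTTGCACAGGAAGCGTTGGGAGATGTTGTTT
Pdcd10, named probe: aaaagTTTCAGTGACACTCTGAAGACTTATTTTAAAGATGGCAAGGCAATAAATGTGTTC
Pdcd10, second probe: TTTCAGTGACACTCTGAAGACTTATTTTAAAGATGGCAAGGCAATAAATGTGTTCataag
The second probes enter the fit as features of their own. All 3 changed in the direction of the named ones: Hspb1 1.26 against 1.29, Gcsh -0.83 against -0.82 and Pdcd10 -0.60 against -0.62 in log2 change, the second probes at adjusted p of 0.00053, 0.034 and 0.023 (limma).

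Of the 66 named members 11 were called (16.7%, against 18.4% of all features), 3 higher and 8 lower. In all 11 the 3 arrays of a group lay beyond the 3 of the other, which held for 52.8% of all features (30.8% higher, 22% lower). Within the shared slide 3 of the 11 were called, Hspb1, Tmem41b and 2810021J22Rik; the others had adjusted p of 0.063 to 0.19 there, with the same signs. The falls reached genes of one-carbon metabolism, autophagy, splicing, ribosomal RNA transcription and cell junctions; each is 1 gene, and no pathway can be read from it.

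Gcsh encodes the H protein, the lipoate-bearing shuttle of the glycine cleavage system, which hands a one-carbon unit from glycine to tetrahydrofolate. Its level was 0.09, 0.51 and 0.74 in control and -0.50, -0.56 and -0.07 in withdrawal. Its control arrays spread most widely among the 11 genes (SD 0.33), and the groups did not overlap. Gcsh fell by 0.82 on the log2 scale (SE 0.23, n = 3 per group, adjusted p = 0.023 by limma), a 1.77-fold decrease. The fall was -1.12 within the shared slide, where it was not called (adjusted p = 0.082). It was also not called without control replicate 2 or 3, or without withdrawal replicate 1 or 2. Gcsh was the single tested gene among 34 of the folate and one-carbon list and among 10 of the serine and glycine list; none of the 29 genes of nucleotide synthesis and none of the 17 of the methionine cycle could be tested by name.

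Hspb1, a small heat shock protein that holds unfolded proteins and stabilises actin, had levels of -2.81, -3.06 and -3.13 in control and -1.65, -1.63 and -1.86 in withdrawal. Every withdrawal array was above every control array. It rose 2.44-fold (log2 change 1.29, SE 0.18, adjusted p = 0.00016 by limma) and by 1.42 within the shared slide (adjusted p = 0.0070). Median centring of the arrays in place of loess gave 0.54, not called (adjusted p = 0.29). Its second probe gave 0.52 under that setting. Of the 60 genes of the heat shock and chaperone list, 5 were tested, with a median change of 0.18 beside 0.04 over all features. Among the 5, 1 rose and 1 fell, where 10.0% of all features were called higher and 8.40% lower. The one that fell was Txndc9, a thioredoxin-fold protein that binds the CCT chaperonin. Its levels of 0.38, 0.43 and 0.37 in control and 0.00, 0.04 and -0.15 in withdrawal gave a fall of 0.43 (SE 0.10, adjusted p = 0.0084 by limma). The mitochondrial chaperonin Hspd1 stood at -0.03 (SE 0.16), the prefoldin subunit Pfdn1 at 0.18 (SE 0.22) and the cyclophilin Ppid at 0.25 (SE 0.15), none of them called. Dnajb9, an endoplasmic reticulum co-chaperone and the only tested member of the 30 genes of the unfolded protein response list, was at 0.13 (SE 0.14, adjusted p = 0.51 by limma).

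Of the 102 genes of membrane trafficking, autophagy and cell cortex 7 were tested: 2 fell, 1 rose and 4 were not called, with a median of -0.26. Over all features 10.0% were called higher and 8.40% lower, with a median of 0.04. So few genes do not describe the list. Tmem41b is a lipid scramblase of the endoplasmic reticulum that autophagosomes and lipid droplets need. It had levels of 1.5, 1.69 and 1.90 in control and 0.89, 0.82 and 0.54 in withdrawal, a gap wider than the spread of either group. It fell by 0.94 (SE 0.17, adjusted p = 0.0011 by limma) and was called within the shared slide too (-1.14, adjusted p = 0.018). Pdcd10, a scaffold of the STRIPAK complex and of endothelial junctions, also known as CCM3, went from 0.83, 1.11 and 1.14 to 0.43, 0.44 and 0.33. It fell by 0.62 (SE 0.16, adjusted p = 0.012 by limma) and lost the call without control replicate 2 or 3. Tbc1d16, a GTPase-activating protein that switches Rab GTPases off, is far less abundant in M-Wnt than in the fibroblast reference. Its levels were -4.46, -4.79 and -4.83 in control and -4.37, -4.32 and -3.78 in withdrawal, so the groups were nearly touching. It was called higher by 0.54 (SE 0.16, adjusted p = 0.029 by limma), and the call was lost under median centring (0.07), processed signals (0.45), the red channel alone (0.10), the filter for all 18 arrays and without control replicate 2 or 3 or withdrawal replicate 3. Chmp3, Ezr, Sec22b and Rab5b, which serve membrane scission, the cortex and vesicle traffic, were at -0.26, -0.26, -0.05 and 0.06 and not called. The second probe of Chmp3 was not called either (-0.51, adjusted p = 0.15 by limma).

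Both genes of RNA synthesis and processing that were called fell, where 10.0% of all features were called higher and 8.40% lower. Srsf10, a splicing regulator of the SR protein family, had levels of 1.40, 1.55 and 1.71 in control and 1.01, 0.98 and 1.23 in withdrawal. It fell by 0.48 (SE 0.12, adjusted p = 0.014 by limma) and lost the call without control replicate 3 or withdrawal replicate 1 or 2. Snrpc, the C protein of the U1 snRNP and the other tested gene of the 76 on the splicing list, stood at -0.32 (SE 0.12, adjusted p = 0.076 by limma) with groups that did not overlap. It was called under median centring (-1.0), processed signals (-0.40) and the red channel alone (-0.38). Twistnb, also called Polr1f, is a subunit of RNA polymerase I, which makes ribosomal RNA. It went from 0.72, 0.90 and 0.94 to 0.30, 0.39 and 0.27, a fall of 0.53 (SE 0.13, adjusted p = 0.011 by limma) that was not called without control replicate 3. The elongation factor Supt4a, the other of the 71 transcription genes tested, was at 0.06 (SE 0.14). The ribosomal protein gene Rpl18 (-0.22, SE 0.15) and Rps23rg1 (0.24, SE 0.15), a retrogene of Rps23 that is not itself known as a ribosomal protein gene, were not called; they were the 2 tested of the 99 on the ribosome list. Median centring called Rpl18 lower (-1.0, adjusted p = 0.034).

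The steepest fall of any named gene was that of 2810021J22Rik, a protein-coding gene with no established role. Its levels were 2.11, 2.17 and 1.96 in control and 0.88, 1.03 and 0.83 in withdrawal, with group SDs of 0.11 and 0.10. It fell by 1.17 (SE 0.11, adjusted p = 5.2e-06 by limma), a 2.25-fold decrease, and kept its call under all 22 alternatives (-1.40 to -1.05). Macrod2, a hydrolase that removes ADP-ribose from proteins, went from -0.55, -0.37 and -0.27 to -0.93, -0.93 and -0.99. It fell by 0.56 (SE 0.13, adjusted p = 0.0094 by limma) and was not called without control replicate 3. Of the 77 glycolysis and redox genes 3 were tested, Macrod2 with Akr1b10 and Selenoh. Akr1b10, a reductase of aldehydes and retinal, stood at 0.55 (SE 0.21, adjusted p = 0.085 by limma), its levels -0.67, -0.63 and -0.45 in control and 0.05, -0.03 and -0.14 in withdrawal, with no overlap. It was called with the red channel alone (0.59, adjusted p = 0.029). Selenoh stood at -0.19 (SE 0.31).

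Wfdc18, a secreted protease inhibitor of the mammary gland, lay near -4.57 in control and -4.04 in withdrawal. It was called higher by 0.52 (SE 0.17, adjusted p = 0.037 by limma), but median centring turned the sign (-0.10) and processed signals (0.32) and the red channel alone (0.04) ended the call. Single tested members of other lists were not called: Acaca, the first enzyme of fatty acid synthesis (-0.44, SE 0.24), the spindle midzone protein Prc1 (-0.36, SE 0.57), Ssbp2 of the single-stranded DNA binding family (-0.29, SE 0.11; -0.97 and called under median centring), the ubiquitin ligase Rnf125 (-0.28, SE 0.26) and Slfn3 of the Schlafen family (0.11, SE 0.20). Ndufs6 and Atp5md, subunits of the respiratory chain and of ATP synthase, were at 0.24 (SE 0.11) and 0.08 (SE 0.15). Prc1 had M-Wnt levels of 2.08, 2.07 and 2.25 in control and 1.93, 1.71 and 1.67 in withdrawal, without overlap. Fitted on the M-Wnt arrays alone it was called (adjusted p = 0.025 by limma), in a fit that called 14984 of the 41079 features. Altogether 55 named members were not called, with changes between -0.58 and 0.63 and a median of -0.02. Of these, 18 had groups that did not overlap, which held for 52.8% of all features, called or not. Nothing is read from that count.

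**Figure D1:**
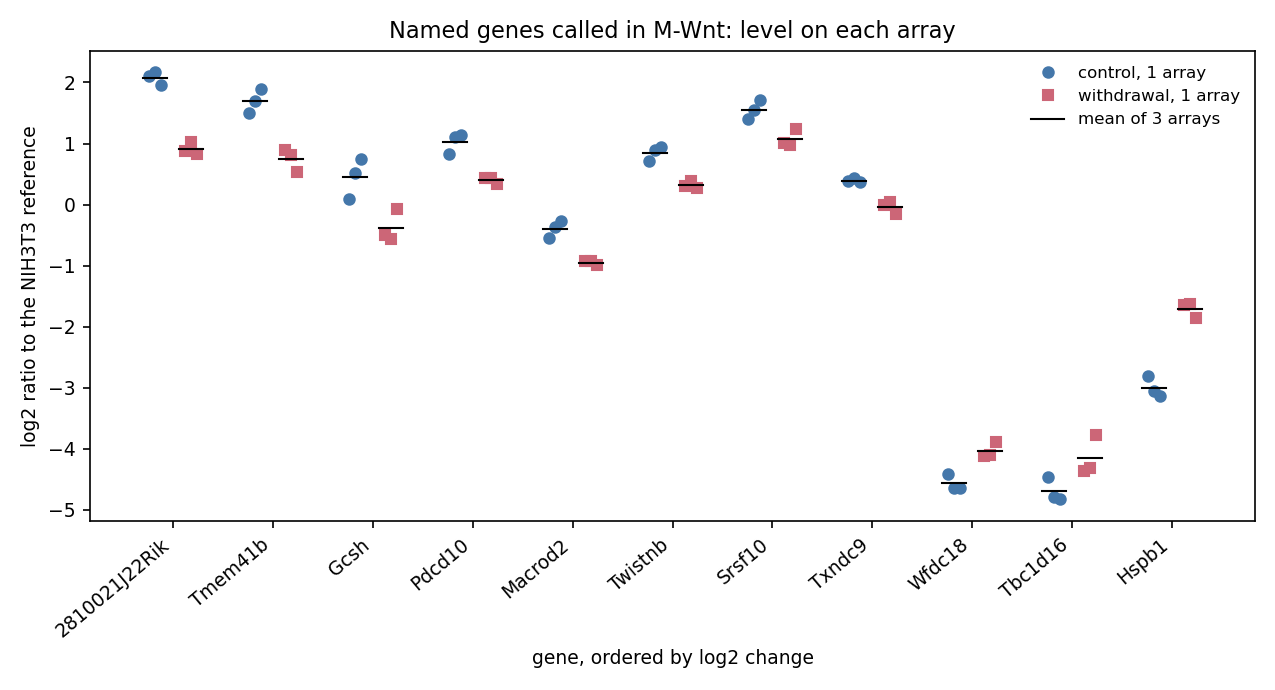
Log2 ratio to the NIH3T3 reference (vertical axis) on each M-Wnt array for the 11 named genes called; circles are control arrays, squares withdrawal arrays and lines the mean of 3. In every gene the groups are apart; 2810021J22Rik falls from 2.08 to 0.91 and Hspb1 rises from -3.0 to -1.71, while Tbc1d16 and Wfdc18 lie near -4.

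None of these 11 genes was called in the other lines by limma, where 0.404% of all features were in metM-Wnt and 0.0389% in E-Wnt. At an unadjusted p under 0.05 (limma), 1 was higher and 1 lower in metM-Wnt, and 1 was lower in E-Wnt. Of all features 5.85% were higher and 7.38% lower at that threshold in metM-Wnt, and 3.82% and 4.2% in E-Wnt. The 11 were chosen for their call in M-Wnt, and nothing is read from these counts. Hspb1 was at 0.13 (SE 0.18) in metM-Wnt and -0.18 (SE 0.18) in E-Wnt. The difference from M-Wnt was 1.15 (adjusted p = 0.013) and 1.46 (adjusted p = 0.0024), by limma. 2810021J22Rik was at -0.12 in metM-Wnt and 0.15 in E-Wnt, with differences of -1.05 (adjusted p = 0.00079) and -1.32 (adjusted p = 0.00012). Its control level was 1.75 in metM-Wnt, close to the 2.08 of M-Wnt, but 0.30 in E-Wnt. The log2 change in metM-Wnt was 0.39 for Macrod2 and 0.27 for Pdcd10, and both differed from M-Wnt (-0.95, adjusted p = 0.0078, and -0.90, adjusted p = 0.027 by limma). Tmem41b and Srsf10 differed between M-Wnt and E-Wnt (-1.20, adjusted p = 0.0059, and -0.62, adjusted p = 0.044), and not detectably between M-Wnt and metM-Wnt (-0.73, adjusted p = 0.087, and -0.53, adjusted p = 0.091). Gcsh was at 0.02 in metM-Wnt and -0.19 in E-Wnt, each with SE 0.23, and neither difference passed (adjusted p = 0.16 and 0.26). For Twistnb, Txndc9, Wfdc18 and Tbc1d16 neither difference passed (adjusted p from 0.054 to 0.53). The Pdcd10 difference was also not called with the red channel alone, with the replicate block, without M-Wnt control replicate 2 or 3, without any M-Wnt withdrawal replicate, or without metM-Wnt control replicate 2 or 3 or withdrawal replicate 2. That of Srsf10 was not called with the replicate block, with trended variances, without M-Wnt control replicate 2 or 3 or withdrawal replicate 1 or 2, or without any E-Wnt array except withdrawal replicate 3. Within the slides that hold both media, the differences of Hspb1, Macrod2, Pdcd10, Tmem41b and Srsf10 were not called, and that of 2810021J22Rik was called against E-Wnt only. Under median centring the Hspb1 differences and the metM-Wnt differences of 2810021J22Rik, Macrod2 and Pdcd10 were not called. With the red channel alone the Hspb1 difference from metM-Wnt was not called either.

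**Figure D2:**
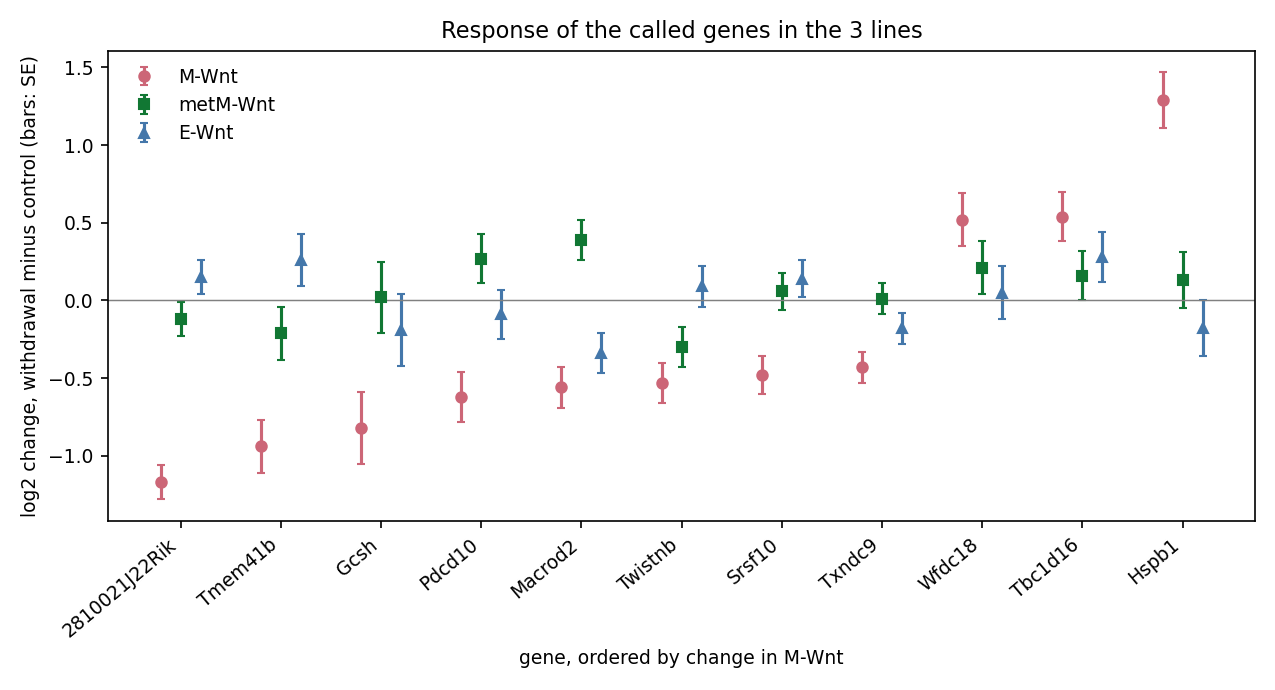
Log2 change on withdrawal (vertical axis, bars are the model's SE, 3 arrays per group) of the 11 called genes in M-Wnt (circles), metM-Wnt (squares) and E-Wnt (triangles). M-Wnt stands apart at both ends, with -1.17 for 2810021J22Rik and 1.29 for Hspb1, where the other lines lie, for these genes, between -0.18 and 0.15.

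How many features rose depended on how the arrays were put on one scale. Mean red signal was lower on the withdrawal arrays (3722, 3418 and 1964) than on the control arrays (5134, 5170 and 4213), and its part in the results was not tested. The share of higher calls was 54.4% with loess, 37.6% with Agilent's processed signals, 38.7% with the red channel alone and 7.91% with median centring. The median change over all features was 0.04, -0.01, -0.01 and -0.25 in the same order, so changes under median centring are relative to -0.25. That offset grew with brightness: features were split into 10 equal classes by mean log2 intensity, and under median centring the median change went from 0.01 in the dimmest class to -0.72 in the brightest, while the red channel alone stayed between -0.05 and 0.01. Calls with the same sign under all 4 scalings numbered 2893 (7.04%): 402 higher, 0.979% of all features and 9.77% of the higher calls, and 2491 lower, 6.06% of all features and 72.2% of the lower calls. Among named genes these were the 8 that fell: 2810021J22Rik, Tmem41b, Gcsh, Pdcd10, Macrod2, Twistnb, Srsf10 and Txndc9. Hspb1 kept its direction under all 4 but was not called under median centring.

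**Figure D3:**
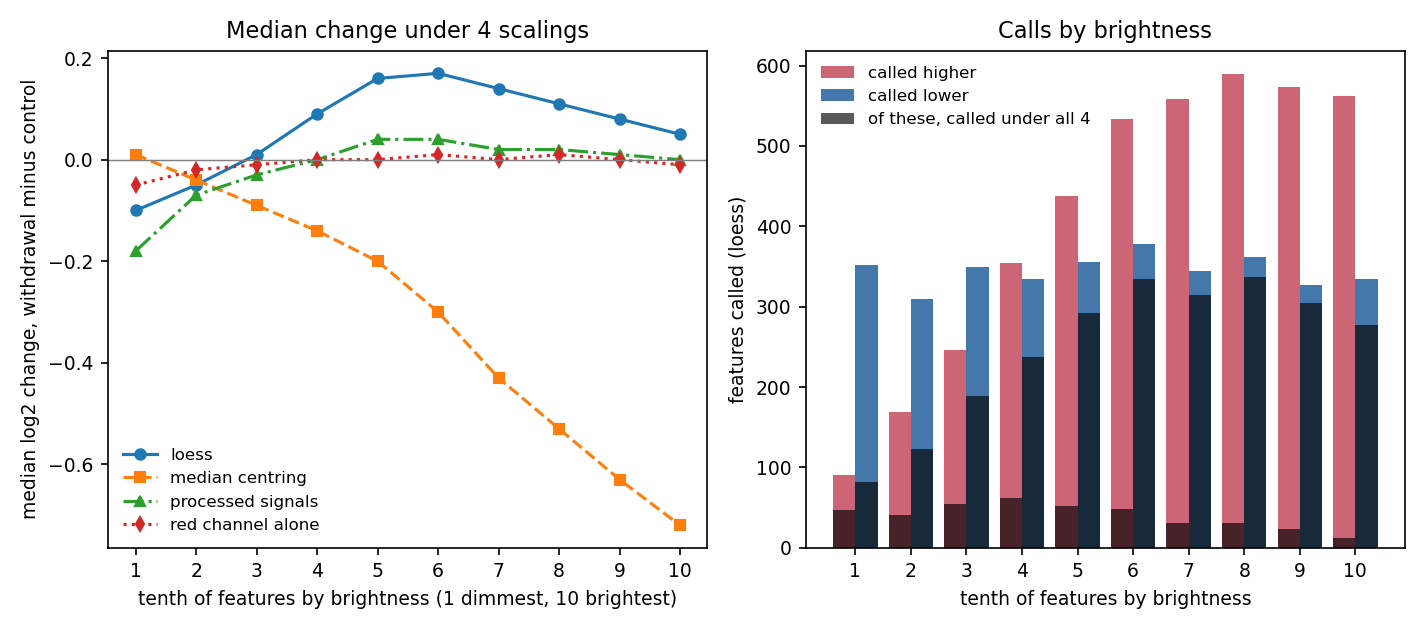
Left, median log2 change on withdrawal in M-Wnt (vertical axis) for 10 equal classes of features by brightness under 4 scalings; median centring ends at -0.72 and the others stay between -0.18 and 0.17. Right, features called higher or lower with loess in each class, the dark part being those called with the same sign under all 4; in the brightest class 562 are higher and 12 of them dark, 335 lower and 277 dark.

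The largest rises were in probes whose log2 change on withdrawal was below 0 in both other lines. Of the features well above background in both M-Wnt groups, 27 rose at least 8-fold, a threshold set after the values were seen, and none fell that far. The smallest of these rises was 3.0 on the log2 scale and the next feature below the threshold had 2.96. All 27 are probes without a gene name here (21 with IDs that start with A_51 and 6 with A_52), and no pair shares 30 letters. Probes of one transcript need not share letters. How many genes the 27 read is not known, so they may not all be separate cases. Their medians were -1.64, -1.60 and -1.72 on the control arrays and 2.08, 2.18 and 2.28 on the withdrawal arrays of M-Wnt. In metM-Wnt the medians were 1.80, 1.37 and 2.19 in control and 0.368, 0.107 and 0.101 in withdrawal. Changes in metM-Wnt played no part in choosing the 27, though its arrays entered the spread shared by the model. Slide moved with the medium in metM-Wnt and E-Wnt too, and its part was not tested. In each, withdrawal replicates 2 and 3 lay on another slide than the controls and withdrawal replicate 1. The log2 change of all 27 was below 0 in metM-Wnt, between -0.903 and -2.19 with a median of -1.65. Of all features 53.1% had a change below 0 there. In 26 of the 27 the metM-Wnt withdrawal arrays all lay under the control arrays, which held for 11.3% of all features. By limma 7 of the 27 were called lower in metM-Wnt, where 0.241% of all features were (0.163% higher); at an unadjusted p under 0.05 it was 24. In E-Wnt the change of all 27 was below 0 as well, with a median of -1.08. None was called there by limma (of all features 0.0341% were lower and 0.00487% higher). At an unadjusted p under 0.05, 21 were lower. Withdrawal replicate 3 of E-Wnt had a median level of -2.02 against -0.513 and 0.15 in the other withdrawal arrays. Without it 25 of 27 changes were below 0 and the median change was -0.558. In control medium all 27 were lower in M-Wnt than in metM-Wnt by their group means, and 26 were lowest in M-Wnt of the 3 lines; the choice of large rises used the M-Wnt control levels. The 27 were called within the shared slide (median rise 3.61) and under the 3 other scalings (medians of 3.30, 3.85 and 3.59 for median centring, red alone and processed signals).

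A_51_P387123 and A_52_P653054 rose most. A_51_P387123 went from -1.64, -1.87 and -1.98 to 3.07, 3.07 and 3.11, a 30.1-fold rise (log2 change 4.91, SE 0.53, adjusted p = 1.8e-05 by limma). Its log2 change was -1.76 in metM-Wnt and -1.61 in E-Wnt. A_52_P653054 went from -1.90, -2.18 and -2.26 to 2.66, 2.76 and 2.69, a rise of 4.82 (SE 0.57, adjusted p = 4.1e-05 by limma), with changes of -1.96 in metM-Wnt and -1.37 in E-Wnt. Falls were smaller: 3 probes bright in both groups fell at least 4-fold, against 85 that rose that far. A_51_P184680 went from 2.03, 2.17 and 2.16 to -0.81, -0.88 and -0.68 (change -2.91, SE 0.11, adjusted p = 8.8e-10 by limma). A_51_P184672 went from 1.59, 1.84 and 1.89 to -0.63, -0.87 and -0.61 (change -2.48, SE 0.15, adjusted p = 1.9e-07 by limma). The log2 changes of these probes were -0.12 and -0.14 in metM-Wnt and 0.12 and 0.07 in E-Wnt. In metM-Wnt 53.1% of all features had a log2 change below 0. Of 58 rises of 4- to 8-fold, 43 were below 0 there (74.1%), 8 called lower and 1 higher. Of 607 rises of 2- to 4-fold, 226 were below 0 (37.2%), 5 called lower and 9 higher, with 0.241% of all features called lower and 0.163% higher.

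**Figure D4:**
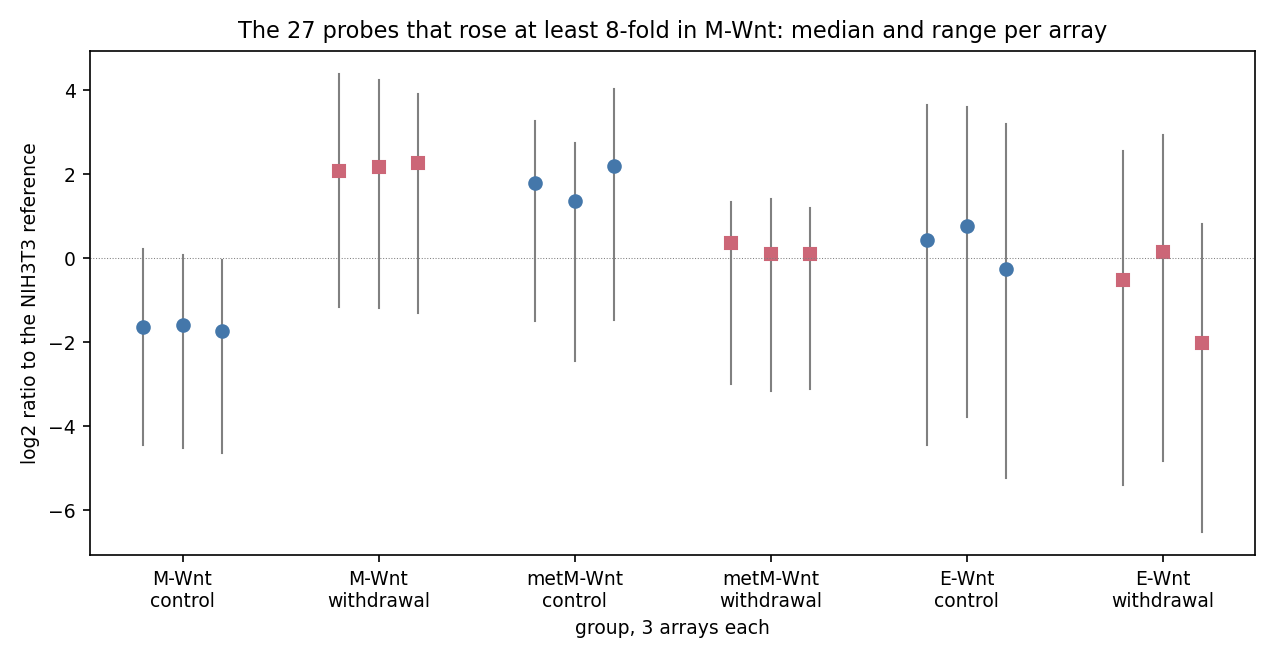
Log2 ratio to the NIH3T3 reference (vertical axis) of the 27 probes that rose at least 8-fold in M-Wnt, for each of the 18 arrays; markers are medians over the probes and lines run from the lowest to the highest. M-Wnt goes from -1.64, -1.60 and -1.72 to 2.08, 2.18 and 2.28, metM-Wnt from 1.80, 1.37 and 2.19 to 0.368, 0.107 and 0.101.

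Probes that share letters were compared on the same arrays, which bears on how repeatable a probe is and not on the source of a change. Among 2536 pairs of tested features that share at least 30 letters on the same strand, the log2 changes differed by a median of 0.0874 and correlated at 0.918 over pairs that sit on the same arrays. In 677 pairs at least 1 probe was called. Both were called in 420, 186 times higher and 234 times lower, and never in opposite directions. For 53 pairs with identical letters the median difference was 0.0489 and the largest 0.263. In 60 pairs that share letters on opposite strands the median difference was 0.306 and the correlation 0.213. Of 1754 transcripts with at least 2 probes named after them, 477 had a called probe; 94 had every probe higher, 162 every probe lower, and 0 had probes called both ways. By probe class, 19.4% of the A_51 probes, 19.1% of the A_52 probes and 19.7% of the 4806 non-coding RNA probes with AK accessions in their IDs were called, against 18.4% of all. Probes whose IDs start with VIRS had the lowest share (129 of 2220, 5.81%).

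A further set of probes could be placed on the genome by their letters. Of the probes, 582 share at least 30 letters with a window from 250 bases before to 50 after a RefSeq gene start (assembly GRCm38.p6), and 209 tested probes have a long or edge-spanning match at a single position. Downstream of a start, 90 matches read the gene's own strand and 16 the other, so probe letters are taken to run like the RNA. This placing, and the choice of sites below, was made after the values were seen. Many promoters give off short-lived RNA in the reverse direction, and such RNA would be read by probes on the strand opposite to a gene, upstream of its start and inside no annotated gene of their own strand. Probes placed in this way, named reverse probes here, numbered 65, and some of them run past the start, among them those at Ralgapa1 and Gm52802. The called ones at Sgf29, Nrm, Rcc1l and Ralgapa1 lie opposite the annotated span of the same gene. Whether reverse probes read promoter RNA or another transcript was not tested. Of the 65, 16 were called (24.6%), 0 higher and 16 lower, at 11 of 50 gene starts. This count includes 3 probes, one each at Ralgapa1, Mrps30 and Sec62, that were bright in control only of the M-Wnt groups. Calls of such features lean lower by that sorting (5 higher and 391 lower over all of them), so nothing is read from these 3. Of the 50 bright in both groups 13 were called, some at the same start (Fancl, Ralgapa1 and Rnpc3), so not all are separate cases. They were 0 higher and 13 lower, beside 3809 higher and 3036 lower of the 34825 features bright in both groups. Over all features 10.0% were called higher and 8.40% lower. At an unadjusted p under 0.05 it was 0 higher and 20 lower of the 65 (limma; 19.9% and 14.6% of all features). In metM-Wnt it was 0 higher and 13 lower (5.85% and 7.38% of all features), and in E-Wnt 0 higher and 2 lower (3.82% and 4.2%); no reverse probe was higher in any of the 3 lines at that threshold. The share was not tested as a set. They are dim (median log2 intensity 7.91); in the brightness class around 7.82, 246 features were called higher and 350 lower. The log2 change of all 16 was below 0 within the shared slide, where all 7563 features called in M-Wnt kept their sign. It was also below 0 under median centring, where the median over all features was -0.25. Of the 16, 14 were called under all 4 scalings, beside 72.2% of all lower calls, and nothing is read from these counts. Within the slide 5 were called. The letters of probes at 3 of these starts follow, chosen after the values were seen from the 7 called starts with no annotated gene on either strand; capitals mark the 7 letters in which the Fancl probes overlap.
Fancl, chr11:26386882-26386941, minus strand: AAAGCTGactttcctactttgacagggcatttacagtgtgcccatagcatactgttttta
Fancl, chr11:26386935-26386994, minus strand: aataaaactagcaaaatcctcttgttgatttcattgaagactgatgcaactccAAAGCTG
Dusp12, chr1:170885592-170885651, plus strand: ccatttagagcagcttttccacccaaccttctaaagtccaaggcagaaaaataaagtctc
Pdf, chr8:107048671-107048730, plus strand: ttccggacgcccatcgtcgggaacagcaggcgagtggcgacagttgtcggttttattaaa
These positions are in GRCm38.p6, from a match of the letters to RefSeq.

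Upstream of Fancl, a ubiquitin ligase of the Fanconi anaemia DNA repair pathway, the first probe went from 1.41, 1.23 and 0.98 to 0.37, 0.40 and 0.36 and the second from 1.46, 1.21 and 1.11 to 0.59, 0.57 and 0.41. They fell by 0.83 and 0.73 (SE 0.15 each, adjusted p = 0.0014 and 0.0038 by limma). Sgf29, a subunit of the SAGA histone acetyltransferase, had a reverse probe that fell by 1.07 (SE 0.11, adjusted p = 1.1e-05 by limma), from -0.32, -0.29 and -0.35 to -1.31, -1.37 and -1.50. It also differed from its response in metM-Wnt (0.20, adjusted p of the difference 0.00015) and E-Wnt (-0.30, adjusted p = 0.0069). Across the start of Ralgapa1, a subunit of a Ral GTPase-activating complex, 3 overlapping reverse probes fell by 0.78, 0.76 and 0.72. The largest change of the 16, -1.14 (SE 0.20, adjusted p = 0.0013 by limma), was in a probe across the start of Gm52802. Its levels went from 3.34, 3.06 and 2.98 to 2.44, 2.16 and 1.35, and its change within the shared slide was -1.0. The reverse probe of Dusp12, a dual-specificity phosphatase, fell by 0.58, and that of Pdf, the mitochondrial peptide deformylase, by 0.68. A pair each at Rnpc3 of the minor spliceosome and Sec62 of the protein translocon fell by 0.70 and 0.59 and by 0.59 and 0.57. The fall of 0.57 at Sec62 was not called without control replicate 2 or 3 or withdrawal replicate 1 or 2, nor was that of 0.70 at Rnpc3 without control replicate 3 or that of 0.59 there without withdrawal replicate 2 or with the red channel alone. None of the 65 was called in metM-Wnt or E-Wnt by limma, where 0.404% and 0.0389% of all features were. The difference in response passed for 3 of the 16 against metM-Wnt and 5 against E-Wnt, beside 5.09% and 6.86% of all features; the 16 were chosen for their fall in M-Wnt, and nothing is read from these counts.

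Of 117 placed probes that lie in a gene of their own strand, 20 were called (17.1%), 10 higher and 10 lower, a share near the 18.4% of all features. The table of genes gives spans and not exons, so exonic and intronic probes were not separated. The probe in Ndufaf4, an assembly factor of respiratory complex I, at chr4:24898160-24898219 went from 0.15, 0.54 and 0.81 to -0.61, -0.70 and -0.36. It fell by 1.06 (SE 0.19, adjusted p = 0.0013 by limma) and was called within the shared slide (-1.36, adjusted p = 0.012). A probe in the span of the complex I subunit Ndufa9 fell by 0.32 (SE 0.09, adjusted p = 0.023 by limma). It was not called within the shared slide (adjusted p = 0.15) or without any one M-Wnt array except withdrawal replicate 2. A probe in the span of Plet1, a surface protein of progenitor-like epithelial cells, rose by 0.98 (SE 0.13, adjusted p = 0.00012 by limma), from -4.33, -4.47 and -4.53 to -3.53, -3.60 and -3.25. Under median centring its change was 0.46 and it was not called. Probes in Psme3ip1, Stard13 and Tfpt fell by 0.66, 0.52 and 0.54, and one in Cit, the citron kinase of cytokinesis, rose by 0.61. None of the 4 was called within the shared slide (adjusted p = 0.068, 0.069, 0.14 and 0.069). Cit was not called under median centring (0.44), nor Tfpt under it (-0.60), with the red channel alone, with the replicate block or without any one M-Wnt array except control replicate 1. In the span of Zfp827, 3 overlapping probes rose by 0.47, 0.43 and 0.59, and median centring turned all 3 (-0.16, -0.19 and -0.08). None of them was called with processed signals, the red channel alone or within the shared slide.

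**Figure D5:**
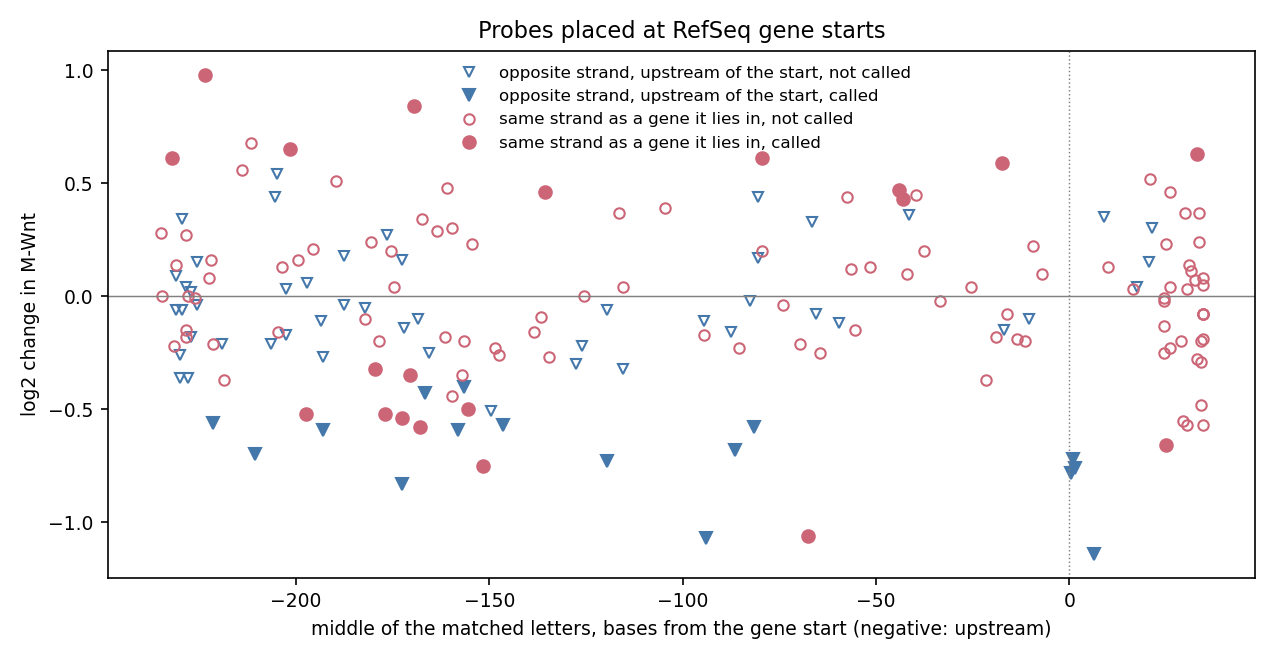
Log2 change on withdrawal in M-Wnt (vertical axis) of placed probes against the middle of their match, in bases from the start of the gene whose window they match (horizontal axis). Triangles read the opposite strand upstream of a start, some running past it, and circles lie in a gene of their own strand. Symbols are filled where called. The 16 filled triangles lie between -1.14 and -0.40 and the filled circles on both sides of 0.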

How the data were processed

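Cells, groups and arrays are as given above. Images were read by Agilent Feature Extraction 10.7.3.1, per the submitters' processing notes. Its output as deposited gives linear intensity per spot for foreground and background, and a processed intensity from which, per the file headers, background was removed and dye bias corrected. Values of the deposited table differ from the log10 ratios in these files by at most 0.005. The file headers name mouse build mm9 for the design; no aligner applies.

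From the intensities, background was corrected by normexp (offset 50), ratios were normalised by loess within arrays with control and outlier spots at weight 0, and the 2 spots of each of 80520 probes and the probes of a named gene were averaged. Features well above background in red on 3 arrays of any group were fitted in limma 3.58.1 (R 4.3.3), 6 group means over 18 arrays (residual degrees of freedom 12, prior 3.97); tests are 2-sided. Errors are SE, or SD where said, with n = 3 arrays. Names came from accessions in probe IDs through RefSeq (220 probes, 157 symbols), and sequences from the scanner files and RefSeq. Python 3.11.15, pandas 2.3.3 and matplotlib 3.10.9 did the rest. The fit was tested on simulated data. Same-numbered control and withdrawal arrays deviated together with correlations of -0.015, -0.016 and 0.133, so numbers were not taken as pairs. The number of arrays limits precision.

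The members, the 23 gene lists and the comparisons were chosen with earlier results of these data known. Named are all called genes, tested list members, genes called in a difference in response, and the top 2 probe IDs each way; placing probes by letters was added after the files were seen. Alternatives covered scaling, background, filters, slide, pairing, weights, variance model and single arrays. The design text gives folic acid in mM; the labels' µM is used.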

Additional observations from a re-analysis of the deposited data

Results flagged for a closer look

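The M-Wnt response differed from that of metM-Wnt for 2092 features and from that of E-Wnt for 2820 (interaction contrasts in limma, adjusted p under 0.05). Against metM-Wnt the differences were 1.15 for Hspb1, -1.05 for 2810021J22Rik, -0.95 for Macrod2 and -0.90 for Pdcd10. Against E-Wnt they were 1.46 for Hspb1, -1.32 for 2810021J22Rik, -1.20 for Tmem41b and -0.62 for Srsf10. Probe A_51_P387123 differed by 6.67 from metM-Wnt and 6.52 from E-Wnt, and A_52_P653054 by 6.78 and 6.18. Probe A_51_P184680 differed by -2.79 and -3.03, and A_51_P184672 by -2.34 and -2.54. Groups of 3 arrays are too small for the test of single outlying arrays, which was not run.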

How the results depend on the processing

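The count of 7563 features called in M-Wnt became 2023 with slide as a fixed block, which is the same fit as within the slide of both media (2023), 14984 when the other lines were dropped from the fit and 25558 with array weights; other settings gave 6012 to 10227. Leaving out 1 array gave 3994 to 6053, the lowest without control replicate 3. The 2092 features that differed from metM-Wnt became 251 under median centring, 204 with the slide block and within slides (204), 3615 with slide as a random block, 4520 in the fit of both lines alone and 11160 with array weights, and 1109 to 2441 without an array (without M-Wnt control replicates 2 and 3: 1109 and 1122). The 2820 that differed from E-Wnt became 1148, 229 (229 within slides), 6003 and 8306 under median centring, the slide blocks and array weights, and 1621 to 5179 without an array, the highest without E-Wnt withdrawal replicate 3. With a replicate block, 6012 features were called in M-Wnt, and 1495 and 2013 in the differences.

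Median centring turned Wfdc18 (-0.10), the 3 Zfp827 probes (-0.16, -0.19 and -0.08) and the probes in Atrip (-0.20) and E130304I02Rik (-0.04). Of 2018 values of single results under alternatives, 1746 kept direction and call, 245 lost the call, 21 gained it and 6 turned; 24 of those kept had another sign without a call on either side. Dim probes limit what can be read: changes near background are compressed. Causes were not tested.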
